A study of Mus musculus with 2 samples.

Results

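Pyruvate dehydrogenase genes were followed in mouse B cells that overexpressed the microRNA miR-181b. Of 10 genes looked for, 4 encode the kinases that switch the enzyme off (Pdk1, Pdk2, Pdk3 and Pdk4), 2 encode the phosphatases that switch it on (Pdp1 and Pdp2), and 4 encode its subunits (Pdha1, Pdhb, Dlat and Dld). All array probes carrying one of these names were taken, whatever their values. Under their own names 8 genes had 15 probes, and Pdp1 was found under its older name Ppm2c with 2 more. The set therefore held 9 of the 27670 gene names on the arrays and 17 of 41174 probes. No probe matched Pdp2 by name, accession or synonym, and it was not analysed here.

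The RNA came from primary splenic B cells of C57BL/6 mice, purified by removing CD43-positive cells. Both groups were stimulated by 25 µg/ml of lipopolysaccharide together with 10 ng/ml of interleukin-4, and were exposed to retroviral supernatant for 20 h with polybrene at 8 µg/ml. The first group carried the miR181b-GFP vector and the second the control-GFP vector, and cells with green fluorescence were sorted 2 days later. The arrays read messenger RNA and not the mature microRNA, so its level in the sorted cells was not analysed here. The labels give 1 RNA sample per vector, and both RNAs were hybridised together on 2 two-colour arrays, with miR-181b RNA in Cy5 on array 1 and in Cy3 on array 2. The arrays repeat 1 pair of RNAs, so no test between the vectors was possible. Each ± below is the distance of either array from the mean of both and measures technical spread only, and its precision is limited by the number of arrays. How many animals were used is not given in the sources used here.

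The pyruvate dehydrogenase complex sits in the mitochondrial matrix and turns pyruvate from glycolysis into acetyl-CoA for the citric acid cycle. Its E1 component, a tetramer of Pdha1 and Pdhb products, decarboxylates pyruvate, the Dlat product (E2) passes the acetyl group to coenzyme A, and the Dld product (E3) reoxidises the lipoyl arm of E2. Pyruvate dehydrogenase kinases phosphorylate serines of the E1 alpha subunit and stop the reaction, and the phosphatases reverse this, so that the balance of both sets how much pyruvate is oxidised rather than reduced to lactate. Pdk1 is a known target of hypoxia-inducible factors, and Pdk4 is known for its induction by fasting and fatty acids.

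The microRNA is shown with its seed, bases 2 to 8, in capitals, because the seed is the stretch that pairs with target transcripts. In RefSeq (GRCm38.p6) the 24-base mature sequence stands at chr1:137966650-137966673 and at chr2:38853845-38853868, both on the + strand.
mmu-miR-181b-5p: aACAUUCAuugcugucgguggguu
The same seed is shared by 4 mature names, mmu-miR-181a-5p, mmu-miR-181b-5p, mmu-miR-181c-5p and mmu-miR-181d-5p.

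The complement of that seed (TGAATGT, read on the probe strand) was present in 1 of the 17 member probes, against 393 of all 41174 probes (0.954%). The probe belongs to Pdhb, on chromosome 14. Bases 28 to 57 of this 60-base probe are shown, with the seed match in capitals, because it was the only seed match among the probes and its transcript can be set beside Pdk1.
Pdhb probe 1: gattcggacttTGAATGTaaagtcattgaa
Neither probe of Pdk1 held the match. A probe covers a small stretch of a transcript, so no match says only that these letters are not in that stretch. Whether the Pdhb match lies in the coding part of its transcript was not determined, and the match shows letters and no pairing.

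Pdk1, a kinase gene known to be induced by hypoxia, was 2.80-fold lower in miR-181b cells. Probe 1 had a normalised intensity of 1843 on array 1 and 1608 on array 2 in miR-181b RNA, against 5115 and 4530 in control RNA. Its signal in miR-181b RNA was thus 36.0% of control on array 1 and 35.5% on array 2. The log2 ratio of miR-181b over control was -1.47 on array 1 and -1.49 on array 2, with a mean of -1.48 ± 0.01. The uncorrected mean signals were lower in miR-181b RNA on both arrays, but they also carry the dye. They were 2406 (miR-181b, Cy5) against 3844 (control, Cy3) on array 1, and 1149 (miR-181b, Cy3) against 6341 (control, Cy5) on array 2. For Pdk3 probe 1 the Cy5 signal was the higher on both arrays (2812 against 1836, and 2893 against 1541). The order of Pdk1 on array 2 is thus also that of the dyes, and only its order on array 1 ran against them.

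A second Pdk1 probe was also lower on both arrays. It read 1162 and 893 in miR-181b RNA, against 2983 and 3549 in control RNA, which is 38.9% and 25.2% of control. Its log2 ratios were -1.36 and -1.99 (mean -1.68 ± 0.32, 3.19-fold lower), so the arrays differed more for this probe than for the first. The probes' mean ratios lay 0.19 apart on the log2 scale. Across 5752 genes with 2 or more measured probes the median distance was 0.10 and the 90th percentile 0.30. In pooled RNA of many cells, fewer cells with the transcript and less transcript per cell cannot be told apart.

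**Figure D1:**
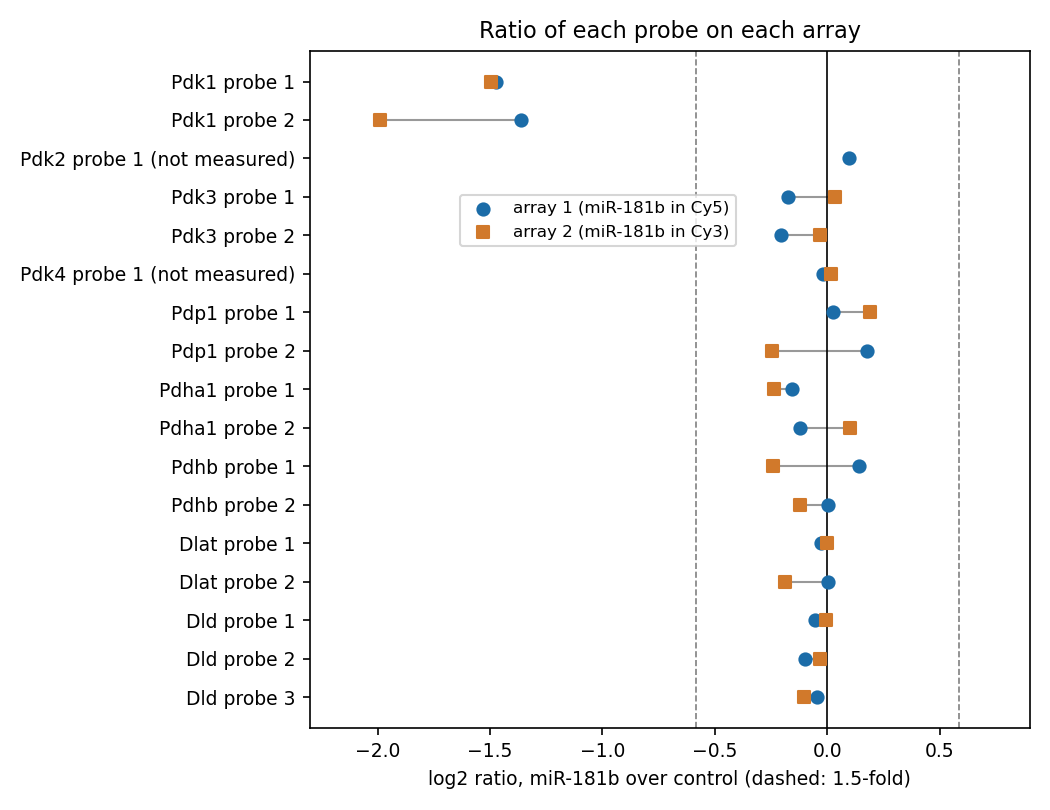
Log2 ratio of miR-181b over control (horizontal axis) for each of the 17 probes, with array 1 as circles and array 2 as squares, a line joining the arrays, and dashed lines at 1.5-fold. Both Pdk1 probes lie beyond 1.5-fold lower on both arrays, and every ratio drawn for the other genes lies between -0.24 and 0.19; the spot of Pdk2 on array 2 was marked as an outlier and is not drawn.

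The other kinase that could be measured, Pdk3, differed little between the vectors. Pdk3 encodes an isoenzyme that, in biochemical work, is relatively insensitive to inhibition by pyruvate. Its probe 1 read 2158 and 2133 in miR-181b RNA, against 2436 and 2081 in control RNA, with log2 ratios of -0.17 and 0.04 (mean -0.07 ± 0.10). Probe 2 read 1360 and 1276 in miR-181b RNA, against 1568 and 1305 in control RNA (-0.21 and -0.03, mean -0.12 ± 0.09). The ratio of probe 1 changed sign between the arrays, and that of probe 2 was below 0 on both. By probe 1 of each gene, Pdk1 minus Pdk3 was -1.30 on array 1 and -1.53 on array 2. That distance was many times the ± of either probe, although probe 2 of Pdk1 had a wider ± of 0.32.

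Pdk2, the broadly expressed kinase, was readable on array 1 only. There it had an intensity of 264 in miR-181b RNA and 247 in control RNA, a log2 ratio of 0.10. Its spot on array 2 was marked by the scanner software as non-uniform and was left out. In that spot the mean over pixels was 2820 in the miR-181b channel with a pixel SD of 3605, and 1295 in the control channel with a pixel SD of 1561. The pixel SDs on array 1 were 50.7 (miR-181b) and 26.1 (control). With the marked spot kept, an alternative chosen after seeing the data, the log2 ratio of Pdk2 on array 2 was 2.06, and the mean of both arrays was 1.08, or 0.80 from the median over pixels. These values rest on 1 uneven spot, and no direction is given for Pdk2.

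Pdk4, the kinase of the fasting response, was not measured in both RNAs. Its mean signal was 98.9 and 79.0 in miR-181b RNA, against 72.4 and 105 in control RNA, over local backgrounds of 68 and 46 (miR-181b) and 45 and 65 (control). The signal was thus 1.45 and 1.72 times its background in miR-181b RNA, and 1.61 on both arrays in control RNA. The miR-181b RNA was well above background on both arrays and the control RNA on array 2 only. The log2 ratios, -0.02 and 0.02, therefore compare signals that barely left the background.

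**Figure D2:**
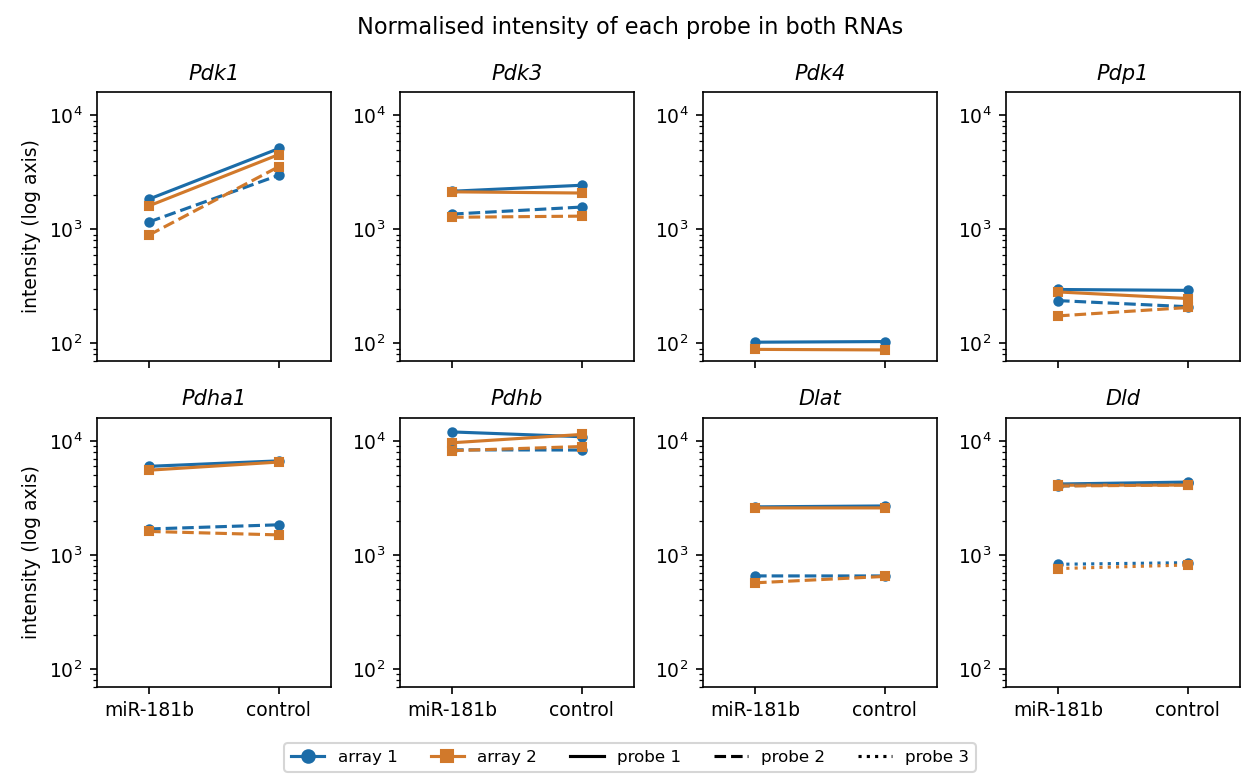
Normalised intensity (logarithmic axis) of each probe in miR-181b RNA (left) and control RNA (right), with array 1 as circles, array 2 as squares, and line styles for the probes of a gene; Pdk2 is not drawn because its spot on array 2 was left out. Only the lines of Pdk1 climb steeply toward control on both arrays, and brightness should not be compared between probes.

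Among the phosphatases, Pdp1 encodes the catalytic subunit of a calcium-activated isoenzyme. Its probe 1 read 297 and 283 in miR-181b RNA, against 292 and 247 in control RNA, with log2 ratios of 0.03 and 0.19 (mean 0.11 ± 0.08). Its probe 2 read 237 and 174 in miR-181b RNA, against 210 and 206 in control RNA, with log2 ratios of 0.18 and -0.24 (mean -0.03 ± 0.21). The probes of Pdp1 differed in the sign of their mean, and both means were smaller than the 1.5-fold limit.

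Pdha1, which encodes the E1 alpha subunit that the kinases phosphorylate, had the lowest ratio after Pdk1. Its probe 1 read 5983 and 5535 in miR-181b RNA, against 6681 and 6525 in control RNA, which gave log2 ratios of -0.16 and -0.24 (mean -0.20 ± 0.04, 1.15-fold lower). Probe 2 of Pdha1 read 1689 and 1607 in miR-181b RNA, against 1838 and 1499 in control RNA, with ratios of -0.12 and 0.10 (mean -0.01 ± 0.11). The lower value of Pdha1 thus held for both arrays of probe 1 and not for array 2 of probe 2. Of all measured genes, 9.97% were lower than probe 1 of Pdha1.

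Pdhb, the E1 beta subunit, did not move one way on both arrays. Its probe 1, which holds the seed match shown above, read 11981 and 9629 in miR-181b RNA, against 10875 and 11391 in control RNA, with log2 ratios of 0.14 and -0.24 (mean -0.05 ± 0.19). Probe 2 read 8345 and 8207 in miR-181b RNA, against 8317 and 8925 in control RNA (0.00 and -0.12, mean -0.06 ± 0.06).

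Dlat, the acetyltransferase core E2, was nearly the same with both vectors. Its probe 1 read 2640 and 2585 in miR-181b RNA, against 2688 and 2585 in control RNA (-0.03 and 0.00, mean -0.01 ± 0.01). Its probe 2 read 655 and 570 in miR-181b RNA, against 654 and 648 in control RNA (0.00 and -0.19, mean -0.09 ± 0.09).

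Dld encodes the dihydrolipoamide dehydrogenase that is also part of the 2-oxoglutarate and branched-chain dehydrogenases and of the glycine cleavage system. The 3 Dld probes were below 0 on both arrays, but by little. Probe 1 read 4185 and 4087 in miR-181b RNA, against 4354 and 4099 in control RNA (mean -0.03 ± 0.03). Probe 2 read 4018 and 4019 in miR-181b RNA, against 4299 and 4107 in control RNA (mean -0.06 ± 0.03), and probe 3 read 828 and 760 against 855 and 817 in control RNA (mean -0.08 ± 0.03).

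Of the 10 genes, 7 were measured, meaning that on each array both RNAs were well above background, and 15 of their probes passed. None of these probes was saturated. At gene level, with the brightest measured probe of each gene, 1 of 7 was at least 1.5-fold lower by its mean, with arrays of equal sign, where 0.512% of 17577 measured genes were. None of the 7 was at least 1.5-fold higher, where 0.819% of measured genes were. Pdk1 also passed a stricter limit of 2-fold on the mean with each array alone at 1.5-fold, which 0.0967% of measured genes did. On both arrays 3 of the 7 were lower (Pdk1, Pdha1 and Dld), where 27.4% of measured genes were, and 1 was higher (Pdp1), where 24.4% were. The other 3 had opposite signs. The median of the 7 genes was -0.05, and that of the 6 without Pdk1 was -0.04, beside -0.01 for all measured genes.

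The 13 measured probes of the 6 other genes had single-array ratios between -0.24 and 0.19 and means between -0.20 and 0.11. Both arrays put 5 of them below 0 and 1 above it, and 7 had opposite signs. Those 13 probes stayed within the span from the 5th percentile of all measured genes (-0.27) to the 95th (0.32). Pdk1 minus another gene of the set ranged from -1.29 (Pdha1) to -1.59 (Pdp1) on the mean, from -1.30 to -1.61 on array 1 and from -1.25 to -1.69 on array 2. In the order of mean ratios from the lowest, Pdk1 was number 5 of 17577, Pdha1 number 1753, Pdk3 5493, Pdhb 6342, Dld 7340, Dlat 8317 and Pdp1 13458. Neighbours in that order overlapped within the spread of their arrays, except Pdk1 with Pdha1 and Dlat with Pdp1.

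The contrast between dyes, which sets Cy5 against Cy3 over both arrays so that the vectors cancel, was small for these genes' brightest probes. This contrast is by its arithmetic equal in size to the ± already given for each probe, and is no separate check. It was 0.01 for Pdk1 and at most 0.19 in size (Pdhb). In size it was 0.32 for probe 2 of Pdk1 and 0.21 for probe 2 of Pdp1. On that contrast 255 of 17577 measured genes (1.45%) passed 1.5-fold, or 43 of 17137 (0.251%) among genes never saturated. The median distance of an array from the mean was 0.0908 over all measured genes. Of 17577 measured genes 8465 had opposite signs on the arrays, so a small ratio of 1 sign carries little information.

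Among 1941 genes whose brightness lay within 0.5 log2 units of Pdk1, the median ratio was -0.00, the 1st percentile -0.47 and the 99th percentile 0.55. Of these genes 1 was lower than Pdk1, Mgarp (-1.88 ± 0.15). Over all measured genes 4 were lower than Pdk1. Besides Mgarp, a mitochondrial protein gene, these were the mitophagy receptor gene Bnip3 (-2.45 ± 0.16), the lactate exporter gene Slc16a3 (-2.01 ± 0.11) and Smtnl2 (-1.53 ± 0.04).

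The 5 genes whose pair of array ratios lay nearest to that of Pdk1, by Euclidean distance over 2 arrays, were Smtnl2 (distance 0.08), Ndrg1 (0.18), Vldlr (0.18), Prelid2 (0.20) and Pgm1 (0.21). Their mean log2 ratios were -1.53 for Smtnl2, -1.37 for Ndrg1, -1.36 for the lipoprotein receptor gene Vldlr, -1.35 for Prelid2 and -1.34 for the phosphoglucomutase gene Pgm1. With only 2 arrays of the same RNAs, this likeness says that their ratios are of like size and no more.

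**Figure D3:**
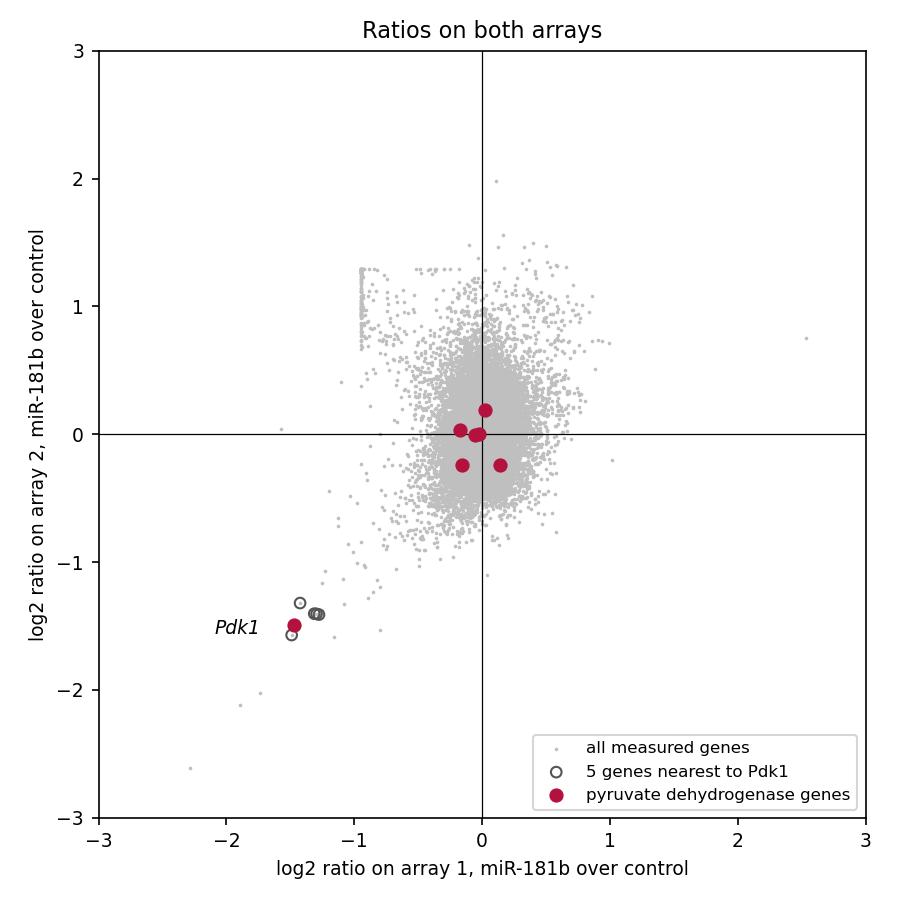
Log2 ratio of miR-181b over control on array 1 (horizontal) and array 2 (vertical) for all measured genes (grey), the 7 measured pyruvate dehydrogenase genes (red) and the 5 genes nearest to Pdk1 (open circles); 3 genes lie outside the axes. Pdk1 stands at -1.47 and -1.49, and the other 6 lie between -0.24 and 0.19 on both axes.

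None of the measured direct partners of the complex differed by 1.5-fold. Of 8 listed, 7 were measured, with a median of 0.00. Both arrays put 1 below 0 and 1 above 0, and they disagreed in sign on 5. Pdhx, the protein that anchors E3 to the core, had a mean log2 ratio of -0.12 ± 0.20, with its other probe at 0.10. Pdpr, a regulatory subunit of the phosphatase, was at -0.05 ± 0.03, with its other probe at -0.20. The genes for making and attaching lipoic acid, the swinging cofactor of E2, were at 0.02 ± 0.07 (Lias), 0.02 ± 0.15 (Lipt2) and -0.11 ± 0.18 (Lipt1). The mitochondrial pyruvate carrier genes were at 0.00 ± 0.07 (Mpc1) and 0.15 ± 0.08 (Mpc2). Pdha2, the E1 alpha gene of the testis, did not stand well above background throughout.

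Among genes for other fates of pyruvate, the lactate exporter Slc16a3 was lower than Pdk1. Its intensity was 8308 and 6640 in miR-181b RNA, against 30898 and 28829 in control RNA (4.02-fold lower, log2 ratios -1.89 and -2.12). Ldha, which reduces pyruvate to lactate, was at -0.47 ± 0.27 from a saturated probe and at -0.28 from its other probe, while Ldhb was higher (0.31 ± 0.14). Pyruvate kinase Pkm, the step that makes pyruvate, was at -0.13 ± 0.19, with its other probe at -0.00. Pyruvate carboxylase Pcx was at -0.06 ± 0.00, and the monocarboxylate transporter Slc16a1 at -0.11 ± 0.15 (other probes -0.10 to 0.05). The alanine transaminases were at 0.25 ± 0.04 (Gpt2) and -0.05 ± 0.03 (Gpt). The malic enzymes were at -0.04 ± 0.16 (Me1), -0.09 ± 0.05 (Me2, other probe 0.14) and 0.01 ± 0.04 (Me3). In miR-181b RNA Me1 (120 and 105) and Me3 (139 and 114) were only a little brighter than Pdk4 (102 and 89). Of 12 listed genes 11 were measured, with Ldhc not among them, and both arrays put 5 below 0 and 2 above it. Slc16a3 alone passed 1.5-fold, and the list's median was -0.06.

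The sister enzymes, which share Dld and are built on the same plan, had 8 of 9 genes measured and a median of 0.10. Both arrays put 1 below 0 and 2 above it. Ogdh, the first subunit of the 2-oxoglutarate dehydrogenase, was at 0.62 ± 0.51, which is past 1.5-fold, but it read 0.11 on array 1 and 1.13 on array 2. Its other probe was at 0.67. Bckdk, the kinase that plays the part of a Pdk gene for the branched-chain dehydrogenase, was at 0.52 ± 0.40 (0.12 on array 1 and 0.91 on array 2). Dbt, its acyltransferase, was at -0.13 ± 0.04. The ratio of Bckdk was above 0 on both arrays where that of Pdk1 was below 0, and the arrays differed widely on its size.

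Downstream, all 15 citric acid cycle genes listed were measured and none reached 1.5-fold in either direction, with a median of 0.05, and both arrays put 3 below 0 and 2 above it. The largest ratios with 1 sign on both arrays were those of fumarase Fh1 (-0.16 ± 0.03) and of the succinate dehydrogenase subunits Sdhc (0.22 ± 0.22, with 0.00 on array 1) and Sdhd (-0.10 ± 0.10, with -0.01 on array 2). Fatty acid oxidation, the other main source of mitochondrial acetyl-CoA, gave a median of 0.04 over 16 measured genes, with none past 1.5-fold. Both arrays put 4 of these genes below 0 and 2 above it, and 10 had opposite signs. The largest ratios with 1 sign in this list were those of Cpt2 (-0.24 ± 0.10), Acadvl (-0.15 ± 0.07) and Acadl (-0.13 ± 0.05). These encode a carnitine palmitoyltransferase and acyl-CoA dehydrogenases.

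Of 12 listed regulators of Pdk genes, 11 were measured, with a median of -0.03 and none past 1.5-fold. Both arrays put 3 below 0 and 1 above it. The largest ratios with 1 sign were those of the coactivator gene Ppargc1a (-0.30 ± 0.00, other probe -0.06), of Epas1, a hypoxia-inducible factor alpha subunit (0.28 ± 0.03, other probe -0.23), and of the fatty acid receptor gene Ppard (-0.15 ± 0.13). In miR-181b RNA Ppargc1a (186 and 161) and Epas1 (184 and 167) were dim. Ppard (98 and 76) was about as dim as Pdk4 (102 and 89), where a ratio could hardly show a 1.5-fold difference. Hif1a, named here after its values were seen, was at 0.21 ± 0.28, with -0.07 on array 1 and 0.49 on array 2. Ppara was not measured.

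Genes known to be induced by hypoxia, the class to which Pdk1 belongs, were mostly lower in miR-181b cells. This list was written with results of these data known and its count is no independent evidence. Without Pdk1, 30 of its 31 genes were measured (Gapdh was not analysed here). On both arrays 25 were below 0 and none above 0, where 27.4% and 24.4% of all measured genes were. At least 1.5-fold lower were 18, and 6 passed the 2-fold limit, where 0.512% and 0.0967% of all measured genes did. Their median lay at -0.65, with arrays 1 and 2 at -0.80 and -0.56, and at -0.70 without 4 saturated genes, beside -0.01 for all measured genes. Those lowest were Bnip3, P4ha2, a collagen prolyl hydroxylase (-1.37 ± 0.22), and the stress-response gene Ndrg1 (-1.37 ± 0.05). Pdk1, at -1.48, lay below all of this list except Bnip3. The list does not hold Slc16a3 (-2.01), Mgarp (-1.88) or Smtnl2 (-1.53), which were also lower than Pdk1.

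**Figure D4:**
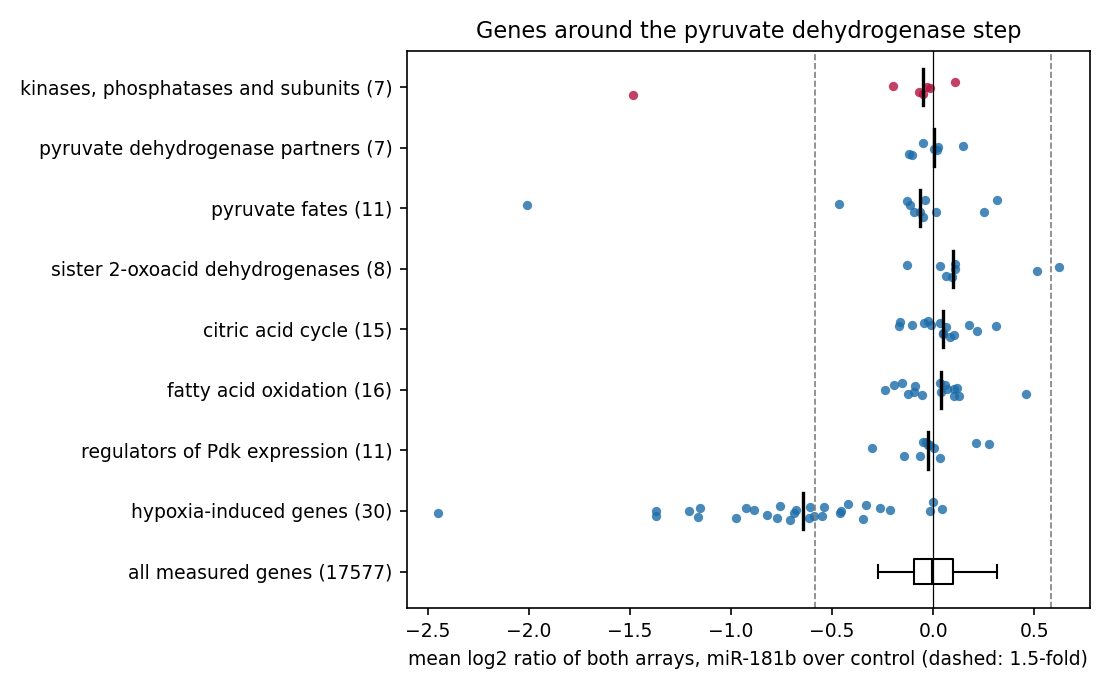
Mean log2 ratio of miR-181b over control for the measured genes of each list (points, number in brackets), with the list's median as a bar and dashed lines at 1.5-fold; the box for all measured genes runs from the 25th to the 75th percentile with whiskers at the 5th and 95th. Pdk1 and Slc16a3 stand apart from the rest of their lists, and the median of the hypoxia-induced genes is at -0.65.

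The Pdk1 promoter is printed because Pdk1, like most of the hypoxia class, was lower. The 250 bases before the annotated start, on the + strand at chr2:71872974-71873223 of GRCm38.p6 (RefSeq, 64.0% G or C), hold GCGTG, a core motif of hypoxia-inducible factors, 78 bases before the start, in capitals.
Pdk1 promoter: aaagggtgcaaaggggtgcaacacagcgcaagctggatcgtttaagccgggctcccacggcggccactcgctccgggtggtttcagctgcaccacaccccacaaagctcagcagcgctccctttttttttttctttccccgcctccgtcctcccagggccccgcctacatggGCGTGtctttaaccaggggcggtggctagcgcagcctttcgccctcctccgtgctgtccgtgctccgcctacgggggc
The letters searched were ACGTG and GCGTG on both strands, and ACGTG may lie within CACGTG. Of 32851 promoter windows of this length, 16.6% held ACGTG, 28.2% held GCGTG and 38.6% held either. Of 9 genes of the set with a promoter entry, 7 held either in at least 1 window, which is 7 of their 11 windows, and Dlat and Dld held none. Pdk3, with 4 matches, and Pdha1, with 3, had more of them than Pdk1 and were not 1.5-fold lower. A second annotated start of Pdk1 held none. In Pdk2 and Pdp2 the match lay within CACGTG, Pdk4 held GCGTG 71 bases before its start, and Pdp1 had no entry. A match describes the letters and shows no binding.

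Markers of the B cell, the labelled cell type, were all measured (9 of 9), with a median ratio of 0.22 that came from array 2 (0.74) and not from array 1 (-0.21). The receptor component gene Cd79a was past 1.5-fold (0.86 ± 0.70, with 0.16 on array 1 and 1.56 on array 2) and the complement receptor gene Cr2 was at 0.25 ± 0.00 (other probe 0.22). Of the other cell types that a spleen preparation can hold, all 8 T cell markers were measured with a median of 0.02, all 6 macrophage markers with 0.02, 3 of 5 natural killer cell markers with 0.12, 2 of 6 granulocyte markers with -0.12 and 2 of 4 erythroid markers with 0.09. Among those with 1 sign on both arrays, the largest ratios were those of Cd3e (0.25), Cd5 (-0.23) and Cd3g (0.23) for T cells, and of Lyz2 (-0.49), Csf1r (-0.26) and Mpeg1 (0.26, other probe 0.13) for macrophages. The other measured probes of Csf1r had the opposite sign (0.13 to 0.19). Prf1 (0.34) and Klrd1 (0.12) led for natural killer cells, Mpo (-0.13) and S100a9 (-0.10) for granulocytes, and Hba-a1 (0.39, other probe 0.24) and Epor (-0.21) for erythroid cells. None of the measured markers of these other cell types was 1.5-fold higher or lower. Some were bright in miR-181b RNA on arrays 1 and 2, such as Lck (4233 and 3551) and Mpeg1 (14096 and 12747). Far dimmer in the same lists were Cd3e (231 and 185), Cd3d (158 and 136), Cd3g (235 and 197), Csf1r (176 and 140) and Lyz2 (222 and 190). Others, such as Cd8a (107 and 83), Thy1 (121 and 94) and S100a9 (107 and 96), were about as dim as Pdk4 (102 and 89). Ratios that close to background could hardly show a 1.5-fold difference. Whether the mixture of cells differed between the vectors was not tested. Measured here means above background, and these medians are ratios and not levels.

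When each array was only centred on its median probe, without the intensity-dependent loess, the median of all measured genes moved to -0.20. Relative to it, Pdk1 was at -1.62 and the other 6 genes lay between -0.37 (Pdha1) and 0.15 (Pdp1).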

How the data were processed

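The series compared messenger RNA of B cells with the miR-181b vector and the control vector on 2 dye-swapped arrays. The deposited scanner files came from Agilent Feature Extraction 9.1.3.1, per the file headers, and give linear mean, median, background and processed intensities in Cy3 and Cy5. Their log10 ratio sets processed Cy5 over Cy3, per the file headers, and was turned here to log2 of miR-181b over control. A table of log2 ratios was also deposited by the authors. All 40929 single-spot probes matched it by value within 0.0002, after constants of 0.0011 and 0.0327 were added to the log2 processed ratios, which settled its scale, centring and direction (miR-181b over control). Its medians by column were -0.0626 and -0.0704.

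In R 4.3.3 with limma 3.58.1, mean signals were corrected by normexp (offset 50) against the local median background and normalised by loess within each array, control spots having weight 0. Of 45018 spots per array 43379 were no controls. The software had marked 7 spots on array 1 and 21 on array 2 as outliers, and these were dropped. The share of spots well above background was 64.7% to 67.7% per channel, and 71 to 562 spots per channel were saturated and kept. The number of arrays sets the precision. Through the RefSeq gene table of GRCm38.p6, 22951 probes were named by accession, 6659 by symbol and 3109 by synonym, and 8455 kept the file's name. A gene took its brightest measured probe, a probe being measured where each array showed both RNAs well above background. This left 17577 genes. With 1 RNA sample per vector no test was run.

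The named genes are all 10 genes of the set with all their probes, every measured partner and pyruvate-fate gene, up to 3 genes of each of the other lists with the largest mean ratio of 1 sign on both arrays, and the 5 genes nearest to Pdk1. The genes, the 13 lists and the rules were chosen with earlier results of these data known. The steps were checked on simulated arrays. Alternatives covered the scanner's log ratio, no loess, scaling between arrays, no background correction, an offset of 16, all probes averaged, no filter, the deposited table, each array alone and a 2-fold limit.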

Additional observations from a re-analysis of the deposited data

How the results depend on the processing

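Pdk1 was lower in miR-181b cells under every setting run. Its log2 ratio moved by more than the spread of its probe's arrays with the scanner's log ratio (-1.55), median centring without loess (-1.83), scaling between arrays (-1.52), an offset of 16 (-1.51), the mean of both probes (-1.58) and the authors' deposited table (-1.54), and, chosen after seeing the data, with the dimmer probe (-1.68). On single arrays it was -1.49 to -1.47. Under each alternative listed above 1 gene of the set was at least 1.5-fold lower (Pdk1) and 0 were higher, with no test behind either count. Without loess, Pdha1 (-0.577, not set against the moved median of all genes) fell only just short of 1.5-fold. The counts were the same at the 2-fold limit. They leave out the marked spot of Pdk2, which if kept puts the mean of Pdk2 past 1.5-fold higher. For the other 6 genes, 2 of 42 values moved and none changed sign under the settings that kept loess and both arrays. Without loess 6 of 6 moved and 1 changed sign, and on single arrays 3 of 12 values changed sign. The medians of the gene lists changed sign in 4 of 91, 7 of 13 and 6 of 26 values under the same groups of settings. The causes were not tested. Pdk2, at 0.10 on array 1 alone, had a mean of 1.08 with its marked spot kept and of 0.80 with medians over pixels. Pdk4 lies close to the limit that signal over background sets. No paired analysis was possible because both arrays hold the same pair of RNAs.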
